A study of Homo sapiens with 6 samples.

Results

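Of the 967 positions listed as carrying 5-formyluracil in the genome of CAL-62 cells, 245 lie on chromosomes 1 to 6. They were taken as every listed position on these 6 chromosomes, the longest human autosomes, whatever their read counts. The other 18 chromosomes hold 722 positions. CAL-62 is an established human thyroid carcinoma cell line, and all 6 libraries of the study come from its genomic DNA, which was extracted with tetrahydrouridine present, against deamination of 5-formylcytosine. Pull-down libraries were made with the reagent azi-BIAN and prepared at pH 8.8, a condition that turns the modified base into a C in the reads, or at pH 7.2, which leaves a T, and input libraries were not treated. Each group has 2 libraries. The read counts used here are those of the 2 pH 8.8 libraries, and counts of the pH 7.2 and input libraries were not analysed here, so the background of C reads at these positions was not analysed here either. No label ties the 2 libraries to separate cultures.

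5-Formyluracil is formed when the methyl group of thymine is oxidised, by reactive oxygen species or by TET enzymes. The formyl group reacts with chemical probes that natural bases do not bind, and this allows the base to be captured. Under alkaline conditions the base can pair with G in place of A, so the polymerase leaves a T-to-C mismatch at the modified position. A site in the table is therefore a T, on the strand named, with C reads in both pH 8.8 libraries. Glycosylases of base excision repair remove the base from DNA.

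On chromosomes 1 to 6, 1 site lay in a window around a gene start (250 bases before to 50 after) of which RefSeq gives the sequence. It was the T at position 5261368 of the plus strand of chromosome 6, which lies 145 bases before a start of FARS2, the mitochondrial phenylalanyl-tRNA synthetase gene. RefSeq gives this gene an earlier start too, so the site also counts as inside the gene. C made up 12 of 25 reads (48%) in library 1 and 4 of 10 reads (40%) in library 2. The 250 bases before that start, chr6:5261263-5261512 of GRCh38.p14, plus strand, are printed because they show the surroundings of a member base by base, with the modified T in capitals.

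FARS2: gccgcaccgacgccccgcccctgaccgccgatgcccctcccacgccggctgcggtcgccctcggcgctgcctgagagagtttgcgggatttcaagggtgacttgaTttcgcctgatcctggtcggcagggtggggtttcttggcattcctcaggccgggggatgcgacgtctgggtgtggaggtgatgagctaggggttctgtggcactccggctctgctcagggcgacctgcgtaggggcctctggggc

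The stretch was 68.0% G and C and held 21 CG dinucleotides, against medians of 56.4% (quartiles 44.4 to 67.2) and 9 over the 14085 windows of chromosomes 1 to 6. The nearest bases of this site are set beside those of the 4 sites of the other chromosomes that also lay in such a window, each read 5′ to 3′ on the strand of its T, which is in capitals with 10 bases on each side.

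FARS2 (chromosome 6): ggtgacttgaTttcgcctgat
CACNB3 (chromosome 12): tctccccattTtcctgtcctc
CYKILR (chromosome 19): tgctggaggtTgcggcggcgg
GNRH2 (chromosome 20): atccagtccaTgaacattcac
SSTR3 (chromosome 22): tcctgctcccTctccgggcct

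All 5 capitals are T on the strand of the site; for the 3 sites on the minus strand the table gives the complementary plus-strand base. The windows cover 0.312% of the annotated length of chromosomes 1 to 6 and held 0.408% of their sites. No site of these chromosomes lay in a microRNA hairpin of the RefSeq table.

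The first question was how densely the long chromosomes carry sites. Chromosomes 1 to 6 had 0.199 sites per Mb of annotated length (exact Poisson 95% interval 0.175 to 0.225), against 0.405 (0.376 to 0.435) on the other chromosomes. Single chromosomes of the other 18 ran from 0 (Y) to 1.43 (chromosome 19), and 12 of them were above chromosome 3, the densest of the 6. Chromosomes 1 to 6 hold 40.8% of the annotated length and 25.3% of the sites, 0.620 times the number expected from length (exact binomial test, two-sided p = 7.70e-24, adjusted p = 3.85e-23 over 5 tests). Against the number of annotated genes the ratio was 0.679 (exact binomial p = 3.06e-15). Such tests and intervals take all sites as independent, which sites that lie close together are not. They also leave out the spread of density between chromosomes, so the p-values can be far too small. The counts of sites were known from earlier results before the test was run.

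The 6 chromosomes were unlike each other. Chromosome 3 was the densest, with 68 sites, 0.343 per Mb (0.266 to 0.435) and 1.07 times the number expected from length over the whole series. Chromosome 5 had 42 sites (0.231 per Mb), chromosome 6 had 37 (0.217), chromosome 2 had 48 (0.198) and chromosome 1 had 45 (0.181), and the intervals of these 4 overlap. Chromosome 4 had 5 sites, 0.0263 per Mb, and its interval (0.00854 to 0.0614) lies below those of the other 5. Without chromosome 4, the ratio to length of the remaining 5 was 0.677 (exact binomial p = 3.81e-15), so the low density was also seen without it. Chromosome 3, with 16.7 annotated genes per Mb, had a higher site density than chromosome 1, with 22.2 genes per Mb.

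**Figure D1:**
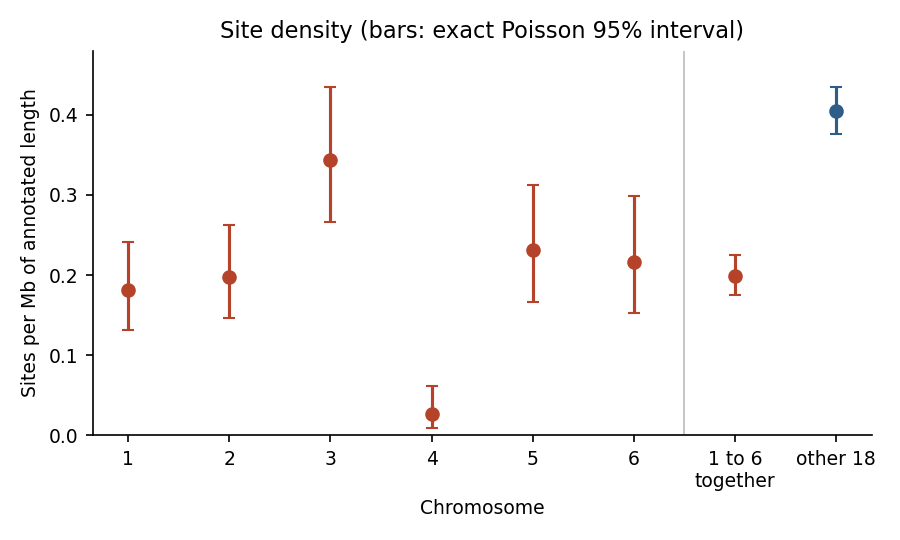
Sites per Mb of annotated length (y axis) for chromosomes 1 to 6, for the 6 together and for the other 18 together; points are counts over length and bars are exact Poisson 95% intervals. Chromosome 4, at 0.0263, lies far below the other 5, and the 6 together (0.199) lie below the other 18 (0.405).

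Long stretches of each of the 6 chromosomes held no site. Among the stretches between neighbouring sites, or between a site and the outermost annotated gene, 24 were longer than 10 Mb. Together they made up 719 Mb, or 58.4% of the annotated length. They held 10270 annotated genes, 14.3 per Mb, against 22.9 per Mb in the remaining length, and 6 of the 24 had more genes per Mb than their chromosome. Whether reads covered these stretches to the depth that the table requires was not analysed here, so an empty stretch is one without a listed site, and the part of copy number or coverage in it was not tested.

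**Figure D2:**
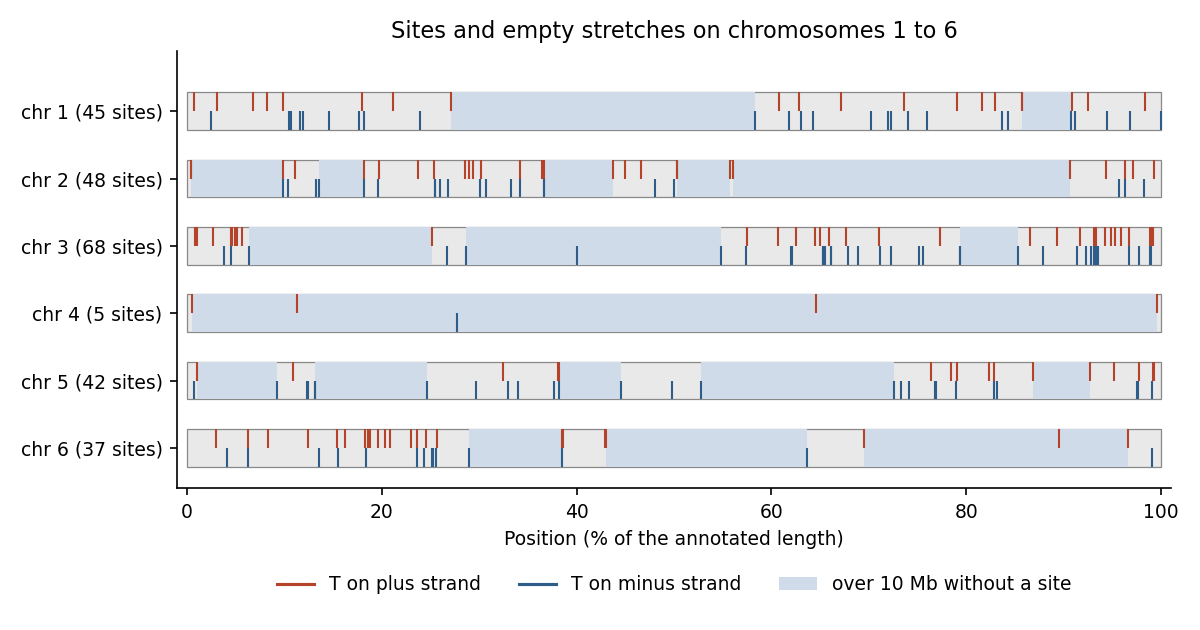
Chromosomes 1 to 6 drawn to the same width, with position as a percentage of the annotated length (x axis); upper ticks are sites with T on the plus strand, lower ticks those on the minus strand, and blue areas are the 24 stretches of over 10 Mb without a site. Blue covers nearly all of chromosome 4 and 36.2% of chromosome 1.

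On chromosome 1 the longest empty stretch ran for 77.7 Mb, between positions 67379289 and 145100788. The site at its left end lies in IL12RB2, a receptor subunit for interleukin 12 (27.8% C reads in library 1 and 35.7% in library 2). The one at its right end lies in FAM72D (21.7% and 26.7%), one of several near-identical FAM72 copies, and whether its reads map to 1 copy alone was not analysed here. The stretch held 1035 annotated genes, among them the proto-oncogene NRAS, and a gene-free run of 21.7 Mb that takes in the centromere and the heterochromatin beside it. The next, of 12.5 Mb, ran from RPS6KC1, a kinase-like gene, to position 225841650, where EPHX1 (an epoxide hydrolase) and TMEM63A overlap (21.4% in library 1 and 33.3% in library 2). The third, of 9.31 Mb, lay between CAMTA1, a calmodulin-binding transcription factor gene (40% and 26.1%), and CROCC, the gene of the ciliary rootlet protein (41.7% and 30.8%). It was gene-rich, with 33.7 genes per Mb against 22.2 for the chromosome.

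On chromosome 2, the 83.8 Mb between positions 135657168 and 219429716 made up 34.6% of the chromosome and held no site among 1256 genes. The 9 genes of the HOXD cluster, which pattern the body axis and limbs, lie in it, as do the very long LRP1B and ERBB4. At the density of the chromosome, 16.6 sites would fall in a stretch of this length. R3HDM1 holds the site at its left end (31.6% in library 1 and 30.8% in library 2), and the right end lies outside genes (25% in both). The second stretch, of 22.7 Mb, ran from a pair of sites in SNTG2, a syntrophin gene, to ATAD2B, a bromodomain ATPase gene. The third, of 17 Mb, ended in NCK2, a signalling adaptor gene (29.0% and 36.4%). On each chromosome the shortest stretch with at least 50% of the sites was then sought. On chromosome 2 it held 24 of 48 sites within 56 Mb, from position 32798395 to 88806874.

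Chromosome 3 had sites near both ends and a further group between them. From its end near position 1642539 to position 12673547 it held 12 sites, and the next, in the cadherin-related gene CDHR4, came 37.1 Mb later at position 49796496 (30.0% in library 1 and 23.1% in library 2). These 37.1 Mb held 709 genes at 19.1 per Mb, above the 16.7 of the chromosome, among them the beta-catenin gene CTNNB1 and the thyroid hormone receptor gene THRB. A single site, in the axon guidance receptor gene ROBO1 (4 of 18 reads in each library), separated the next stretches, of 29.3 and 22.7 Mb. Between the ends, the 5 Mb from 120, 125 and 130 Mb held 4, 5 and 5 sites. Of the 68 sites, 34 lay in the 55.8 Mb from position 140824479 to 196631181. This stretch had 948 genes, and coverage was 17.8 reads per site inside against 19.1 outside in library 1, and 15.7 against 15.9 in library 2.

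The 5 sites of chromosome 4 left 99.1% of it in 4 empty stretches, of 70.0, 66.6, 31.2 and 20.6 Mb. The site at position 998575 lies in IDUA, which encodes a lysosomal enzyme, and had 5 C of 20 reads in library 1 and 3 of 10 in library 2. The site at 21577536 lies in KCNIP4, a potassium channel-interacting protein gene, with 5 of 13 and 6 of 20. Those at 52781806 (3 of 12 and 4 of 15), 122816377 (4 of 10 and 4 of 13) and 189439744 (4 of 15 and 5 of 15) lie outside annotated genes. Their C shares (31.0% ± 7.54 in library 1 and 30.2% ± 2.38 in library 2, SD over 5 sites) stood beside means of 27.9 to 29.2% in library 1 and 29.1 to 31.1% in library 2 on the other 5 chromosomes. Mean coverage was 14 reads in library 1 and 14.6 in library 2, against 16.6 to 18.4 and 14.5 to 15.8 on the other 5. The longest stretch holds the CXC chemokine, UGT2 and alcohol dehydrogenase gene clusters and TET2, which encodes an enzyme that oxidises methylated bases.

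Chromosome 5 held 21 of its 42 sites in the 47.0 Mb from position 133018561 to 180057417. The longest stretch without one, of 35.9 Mb, lay between RHOBTB3 (25% in library 1 and 36.4% in library 2) and FNIP1, a folliculin-interacting protein gene (41.2% and 27.3%), and contains the tumour suppressor gene APC. The second, of 20.9 Mb, ran from position 23867931 to the non-coding gene MRPS30-DT (28.6% and 25%). The third, of 15 Mb, ended in MYO10, a myosin gene of filopodia (26.3% and 31.2%).

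Chromosome 6 was the most concentrated. The 17.5 Mb from position 26400331 to 43895085, 10.3% of the chromosome, held 19 of 37 sites. This stretch takes in histone gene clusters and the major histocompatibility complex, and it had 54.6 genes per Mb against 19.5 for the chromosome. Sites inside it had 28.7% C reads in library 1 and 30.5% in library 2, against 27.1% and 31.5% outside. The longest empty stretch, of 35.2 Mb, ran from EEF1A1-AS1 (25% and 26.7%) to LINC00222 (30.0% and 28.6%), both non-coding genes. The second, of 34.3 Mb, began in CEP85L, a centrosomal protein gene (38.5% and 27.3%), and the third, of 16.3 Mb, in CENPQ, a kinetochore gene (23.8% and 37.5%).

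Windows of 5 Mb with more genes more often held a site. Of 250 windows, 115 held a site and 135 held none. Among the 84 windows with most genes, 66.7% held a site, against 47.0% of the middle 83 and 24.1% of the 83 with fewest. Across the windows, gene number and site number had a Spearman rho of 0.429. Windows of 1 chromosome share their sequence neighbourhood, and the value is a description. Within chromosomes, rho was highest on chromosome 3 (0.576) and lowest on chromosome 4 (0.0784). The window with most sites, 8, was that from 40 to 45 Mb of chromosome 6, with sites in LRFN2, the cyclin gene CCND3, the receptor-like kinase gene PTK7, the ubiquitin ligase gene CUL9 and a pair of overlapping non-coding genes. Next came 7 sites at 180 to 185 Mb of chromosome 3, among them sites in SOX2-OT, the lipid flippase gene ATP11B, the transporter gene ABCC5 and the ephrin receptor gene EPHB3. Windows of 6 sites followed at 30 to 35 Mb of chromosome 6, the histocompatibility region, and at 185 to 190 and 5 to 10 Mb of chromosome 3. Gene number did not fix the order: the 5 Mb from 160 Mb of chromosome 1 held 175 genes and no site, and the 5 Mb from 130 Mb of chromosome 2 held 157 genes and no site, both named after their values were seen. Within 10 Mb of an annotated end lay 18.8% of the sites of chromosomes 1 to 6, where 9.74% of their length lies, against 32.0% of the sites and 20.2% of the length of the other chromosomes. Chromosome 3 gave 18 of these 46 sites, 26.5% of its own in 10.1% of its length. The share of sites was above that of length on chromosomes 1 to 5, with 2 sites on chromosome 4. It was not on chromosome 6 (10.8% against 11.7%).

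Inside a gene lay 153 of the 245 sites (62.4%, exact 95% interval 56.1 to 68.5), against 67.0% (63.5 to 70.5) on the other chromosomes. The difference of -4.59 percentage points did not pass the threshold (Fisher's exact test, two-sided p = 0.212, adjusted p = 0.365). Among the sites with at least 15 reads in both libraries, 69 on these chromosomes, it had the other sign (7.24 points, Fisher's exact p = 0.305). Protein-coding genes held 129 sites, other genes alone held 24, and 92 were intergenic. How much of the length lies inside genes was not analysed here, so no preference for genes can be read from these shares. The share in genes was 77.8% on chromosome 1 (62.9 to 88.8) and 45.9% on chromosome 6 (29.5 to 63.1), the ends of the range among the 5 chromosomes with over 5 sites. The median distance to the nearest gene start was 26.3 kb, against 19.3 kb over the 667 sites of other chromosomes that the start table covers. Within 10 kb of a start lay 24.5% of the sites, against 32.8% of those 667, and that difference was not tested.

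Those sites fell in 155 of 21986 annotated genes (0.705%), of which 123 were protein-coding, 30 were long non-coding RNA genes and 2 were others. Among protein-coding genes, 1.74% held a site, and among long non-coding RNA genes 0.418%. The protein-coding genes with a site had a median length of 91.4 kb, against 30.8 kb for all 7067. The share of genes with a site was 0.360% up to 20 kb and 10.9% over 500 kb. Per Mb of gene body, the 3 classes over 100 kb had fewer sites than the 3 shorter ones. Genes of up to 20 kb had 0.420 sites per Mb (exact Poisson 95% interval 0.202 to 0.773), those of 20 to 50 kb had 0.477 (0.311 to 0.699) and those of 50 to 100 kb had 0.366 (0.248 to 0.519). Genes of 100 to 200 kb had 0.230 (0.150 to 0.337), those of 200 to 500 kb had 0.144 (0.0894 to 0.221) and those over 500 kb had 0.151 (0.0879 to 0.242). On the other chromosomes the 6 values were 1.23, 0.932, 0.711, 0.450, 0.402 and 0.233, highest in the shortest class, which on chromosomes 1 to 6 was not the highest. The 15 genes of over 500 kb with a site include PDE4D, a phosphodiesterase gene and the longest at 1553 kb, CTNNA2, KCNIP4, ROBO1, CDH18, CDH12, NLGN1, GRM7 and CAMTA1. RANBP2, a nuclear pore gene, is among them by the span of 1123 kb that the RefSeq table gives it.

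**Figure D3:**
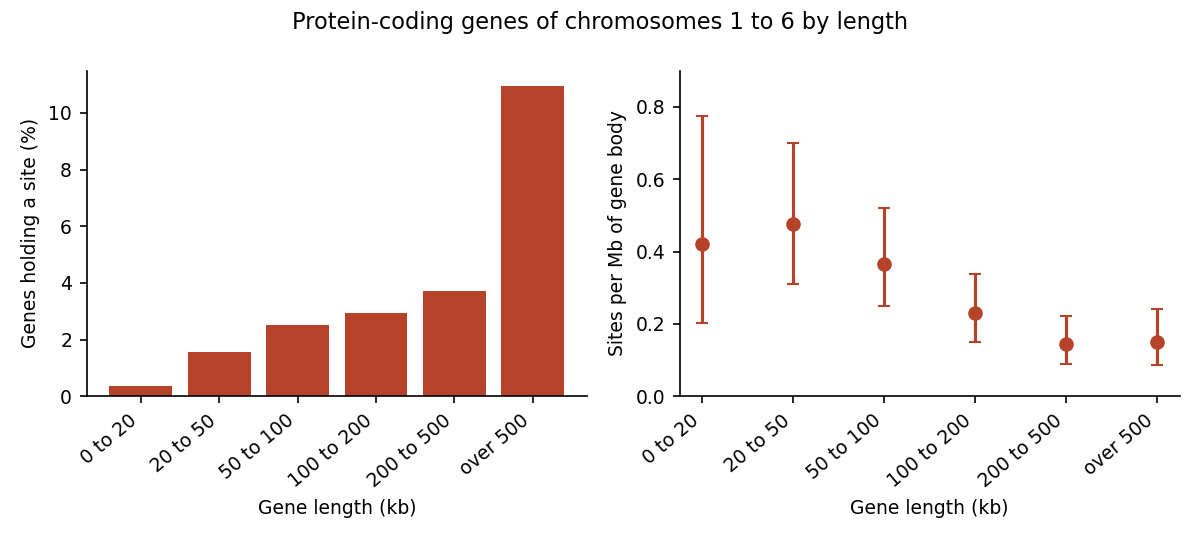
Protein-coding genes of chromosomes 1 to 6 in 6 classes of length (x axes, kb): left, the percentage of genes that hold a site; right, sites per Mb of gene body, with exact Poisson 95% intervals. The share of genes with a site goes up with length, from 0.360 to 10.9%, while the sites per Mb are lower in the classes over 100 kb.

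More than 1 site was held by 14 genes, each with 2. In 6 of them the sites were over 50 bp apart. CDH12, a neuronal cadherin gene of chromosome 5, held sites at positions 22340354 (4 C of 10 reads in library 1 and 3 of 13 in library 2) and 22654716 (3 of 13 and 3 of 14), 314362 bp apart. RPS6KC1 held 2 sites at 213271711 (4 of 14 and 3 of 12) and 213356593 (4 of 13 and 3 of 12) of chromosome 1. SEMA5B, a semaphorin gene of chromosome 3, held sites at 122957214 (33.3% in library 1 and 40% in library 2) and 123026936 (26.7% and 33.3%). ATAD2B on chromosome 2 held them at 23873952 (46.2% and 23.1%) and 23919723 (26.7% and 27.3%). CCDC125 on chromosome 5 held them at 69319220 (40% and 30.0%) and 69330361 (31.6% and 27.3%). In the pseudogene RPL32P3 on chromosome 3, 890 bp lay between 129395141 (27.3% and 23.1%) and 129396031 (40% and 23.5%), and whether these reads also match other copies was not analysed here.

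Pairs within 50 bp numbered 12 and took in 24 sites, 9.80% of the 245, against 8.17% on the other chromosomes. Chromosome 2 had 5 such pairs, chromosome 3 had 4, chromosome 6 had 2 and chromosome 5 had 1, while chromosomes 1 and 4 had none. The members were 2 to 17 bp apart (median 6.5), 4 pairs had both T on the same strand and 8 on opposite strands. In 7 pairs the coverage of the members was within 1 read in both libraries. One read can cover both members of such a pair, which makes their counts dependent, and shared reads were not examined here.

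Of these pairs, 7 lay in genes. In TCOF1, the gene of a nucleolar protein, the members were 16 bp apart on opposite strands and differed most: position 150394699 of chromosome 5 had 5 C of 11 reads in library 1 and 7 of 16 in library 2, and position 150394715 had 5 of 19 and 4 of 16. In LRFN2 on chromosome 6, the members at 40474737 and 40474741 had 5 of 24 and 7 of 23 in library 1, and 4 of 17 and 6 of 17 in library 2. RAD18, a ubiquitin ligase gene of DNA damage tolerance, had nearly equal members at 8902980 and 8902983 of chromosome 3, with 8 of 31 and 7 of 31 in library 1, and 3 of 12 and 3 of 11 in library 2. SNTG2 had a pair 2 bp apart at 1154991 and 1154993 of chromosome 2 (22.6% ± 0.604 and 28.2% ± 0.561, SD, n = 2 libraries). ASTE1 had one at 131017945 and 131017949 of chromosome 3 (33.3% ± 11.8 and 24.0% ± 1.36). The pair at 157381580 and 157381582 of chromosome 3 lies in VEPH1 and the non-coding LOC101928236 alike (30.5% ± 9.88 and 31.4% ± 2.77), and that at 82833825 and 82833834 of chromosome 2 in the non-coding LOC105374831 (26.0% ± 1.36 and 24.6% ± 3.32). The 5 pairs outside genes lie on chromosome 2 at 44064441 (32.1% ± 15.2) with 44064451 (32.7% ± 16.5), at 61591506 (34.7% ± 13.7) with 61591514 (28.4% ± 6.93) and at 88806862 (33.7% ± 3.77) with 88806874 (35.2% ± 2.62), on chromosome 3 at 185075359 (23.9% ± 3.97) with 185075376 (26.1% ± 5.50), and on chromosome 6 at 65809488 (25.8% ± 3.89) with 65809493 (26.9% ± 5.44). At 44064441 and 44064451, on opposite strands, both members were low in library 1 (3 of 14 and 4 of 19) and high in library 2 (6 of 14 and 8 of 18).

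Gene lists for thyroid cells, cancer and DNA repair were counted next. They were drawn up with earlier results of these data known, so their counts are a description. Of 40 genes of DNA repair and replication, 5 held a site, or 12.5% against the 1.74% of all protein-coding genes and the 2.51% of those of 50 to 100 kb (the median length of the 40 is 61.5 kb). Besides RAD18, they include the mismatch repair gene MSH3, FANCD2 of the Fanconi anaemia pathway, and TERT, the telomerase gene. The MSH3 site, at position 80876571 of chromosome 5 (3 of 10 reads in library 1 and 4 of 16 in library 2), lies 0.244 kb inside the end of the gene. FANCD2 held its site at 10083589 of chromosome 3 (10 of 39 and 6 of 23), where FANCD2OS overlaps it. The TERT site is at 1269431 of chromosome 5 (5 of 20 and 4 of 17). With these 5, 10 of the 40 had a site inside or within 100 kb, which held for 9.2% of all protein-coding genes and 6.77% of all genes. Unlike the 2.51%, these 2 shares are not matched to the length of the listed genes. The other 5 include RFC4, the nearest (11.1 kb away), OGG1, which encodes the glycosylase of oxidised guanine (36.9 kb), MUTYH (37.2 kb) and MBD4 (34.9 kb). The 35 genes without a site lay 11.1 kb to 17.5 Mb from the nearest (median 694 kb). Of the TET genes, which encode oxidases of methylated bases, TET3 lay 218 kb away and TET2 17.5 Mb, and NEIL3, a glycosylase of oxidised pyrimidines, lay 12.1 Mb away.

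Of 18 thyroid cancer drivers, 3 held a site, or 16.7% against the 2.51% of protein-coding genes of 50 to 100 kb. The median length of the 18 is 89.0 kb. TERT is among the 3, and it is in the list of DNA repair and replication too. The other 15 lay 182 kb (ARID1A) to 30.4 Mb (NRAS) from the nearest, with a median of 1.78 Mb. None of 5 thyroid genes, PAX8, DIO1, THRB and IYD among them, held one. Their median length is 62.9 kb, where the share is the same 2.51%, so a count of 0 is near the background. PAX8 lay 426 kb from a site, while THRB lay 11.4 Mb away. Of 13 genes of common fragile sites, which are very long genes prone to breaks under replication stress, 1 held a site, or 7.69% against the 10.9% of protein-coding genes over 500 kb. It was PDE4D (59914566 of chromosome 5, 5 of 22 reads in library 1 and 5 of 14 in library 2). The other 12 lay 217 kb (NAALADL2) to 31.2 Mb (CCSER1) from the nearest, with a median of 3.58 Mb. None of the clustered gene families counted held a site within a gene body: 81 histone genes and pseudogenes, 40 HLA genes, 61 clustered protocadherins, 195 olfactory receptors, 35 genes of the cornified envelope, 19 UGT genes, 11 CXC chemokines, 11 alcohol dehydrogenase genes and the 9 HOXD genes. Over all genes 0.705% held a site, and 0.360% of protein-coding genes of up to 20 kb did, so counts of 0 in lists of such short genes are near the background. Median lengths ran from 0.491 kb for the histone genes to 91.9 kb for the protocadherins. For the protocadherins and the UGT genes (median 51.2 kb), the share at their length is that of protein-coding genes of 50 to 100 kb, 2.51%. Beside the 6.77% of all genes with a site within 100 kb, 16 of the 81 histone genes, 4 of the 40 HLA genes, 3 of the 195 olfactory receptors and 1 of the 11 alcohol dehydrogenase genes had one, and the other 5 families had none. Genes of a cluster lie side by side and can overlap, so 1 site can be near several of them. The members of a family are therefore not independent, and neither an excess nor a lack can be read from these counts.

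The share of C reads was asked last. Its mean and SD over the 245 sites were 28.5% ± 6.67 in library 1 and 29.9% ± 6.55 in library 2, against 28.9% ± 6.71 and 30.0% ± 6.79 on the other chromosomes. The differences were -0.35 percentage points in library 1 and -0.07 in library 2, and were not tested. The SD over sites is the spread of single sites and does not measure the error of a difference between means. Library 1 covered these sites with 17.5 ± 6.47 reads on average (10 to 44, 4296 reads in all with 1195 C) and library 2 with 15.4 ± 5.12 (10 to 32, 3781 reads with 1112 C), against 17.3 and 15.2 on the other chromosomes. In each library, every site of the table has 10 or more reads, 3 or more with C, and a share between 20 and 50%. The lowest number of C reads that passes these limits was found at 133 sites of library 1 and at 120 of library 2. The share was higher in library 1 at 106 sites, higher in library 2 at 134 and equal at 5. Across the 245 sites, the shares of the 2 libraries had a Pearson r of -0.0183 and a Spearman rho of -0.0448, which the limits of the table bound and which is given as a description.

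**Figure D4:**
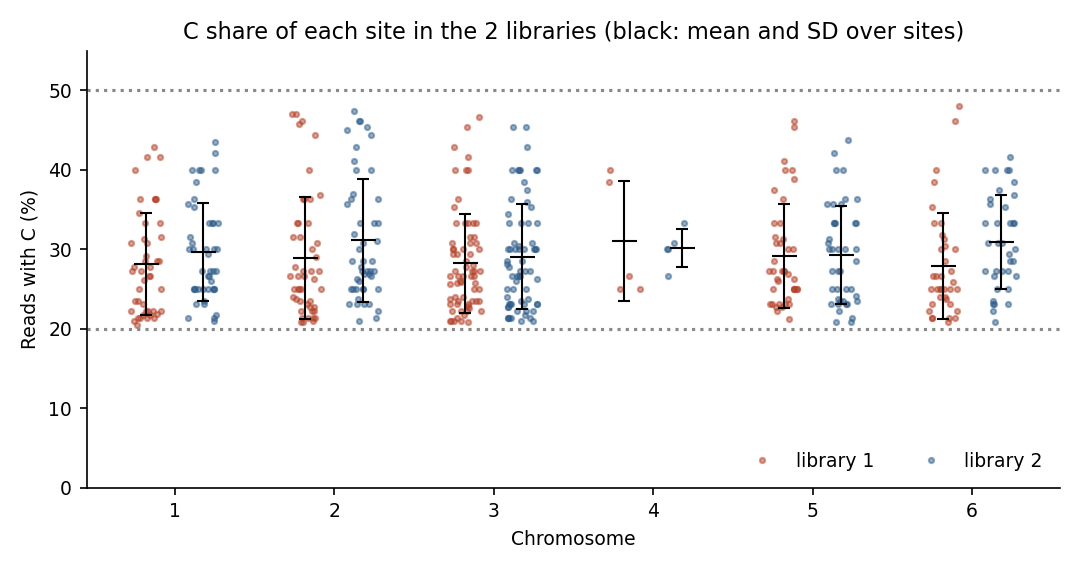
Percentage of reads with C (y axis) at each site in library 1 (red) and library 2 (blue) by chromosome (x axis); black marks are the mean and SD over sites, and dotted lines the limits of 20 and 50%. The means of all 6 chromosomes lie between 27.9 and 31.1%.

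By summed reads, the 3 highest sites of each chromosome were as follows. On chromosome 1 they lay in SLC6A9, a glycine transporter gene (position 44027752, 5 of 12 reads in library 1 and 4 of 10 in library 2), and in the kinase genes TESK2 (45377657, 4 of 11 and 8 of 19) and STK40 (36363710, 6 of 14 and 6 of 19). On chromosome 2 they were in the kinase gene MAP3K19 (135013148, 11 of 24 and 9 of 20), in the deubiquitinase gene USP34 (61438593, 4 of 11 and 6 of 13) and outside genes at 70254198 (4 of 12 and 6 of 13). ATP11B led chromosome 3 (182894984, 7 of 15 and 3 of 10), before the intergenic positions 191629605 (4 of 11 and 6 of 15) and 196185912 (3 of 10 and 5 of 11). On chromosome 4 they were the sites at 122816377, in KCNIP4 and at 189439744, given above. On chromosome 5 the first TCOF1 site was followed by the intergenic 23867931 (7 of 18 and 6 of 18) and 23863207 (6 of 13 and 3 of 12). On chromosome 6 the FARS2 site was followed by the intergenic 41628263 (6 of 13 and 4 of 12) and by 33519609 in LOC107986537 (8 of 20 and 5 of 17). Their intervals were wide: over summed reads the 95% Wilson interval of the FARS2 site ran from 30.5 to 61.8%, that of MAP3K19 from 31.7 to 59.9%, and the median width over all 245 was 30.3 percentage points. At 243 of the 245 the interval held the mean over all sites of the series (29.4%). The FARS2 and MAP3K19 intervals, of the sites with the highest summed shares, lay above it. Among 245 intervals of 95%, some miss a common mean by counting error alone. Whether the ranking of sites goes beyond that error was not tested. The intervals take each read as a separate molecule, which PCR copies are not, and cover counting error only.

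The T lay on the plus strand at 122 of 245 sites (49.8%, exact 95% interval 43.4 to 56.2, exact binomial p = 1), against 50.7% on the other chromosomes (Fisher's exact test p = 0.825, adjusted p = 1). Chromosome 5 had 38.1% on the plus strand (23.6 to 54.4) and chromosome 6 had 62.2% (44.8 to 77.5), and both intervals held 50%. At 112 sites in protein-coding genes the direction of the gene was known from the start table, and an overlapping gene without a direction there was not considered. The T was on the coding strand at 63 of them (56.2%, exact 95% interval 46.6 to 65.6) and on the template strand at 49, a split that did not pass the threshold (exact binomial p = 0.219, adjusted p = 0.365). With at least 15 reads in both libraries the share was below 50% (a difference of -1.52 points, exact binomial p = 1). On chromosome 6 only 1 of 10 such sites was on the coding strand, and on chromosome 1 it was 18 of 27. That difference, singled out after its values were seen, was not tested.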

How the data were processed

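The study has 6 libraries of CAL-62 genomic DNA, of which the 2 at pH 8.8 gave the values used. Per the submitters' processing notes, the tools were Trim Galore, Bowtie2 and MACS2 2.2.6 and the build was hg38. The filter behind the site calls was not given in the sources used here. Per the file headers, the authors deposited counts of all reads and of C reads for each site and library. They also deposited the fraction of C reads, per the file headers, which matched the counts within 1e-09. A second deposited table repeats these values.

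Genes are those of the RefSeq table of GRCh38.p14, the same build; 58961 rows were used, and 718 rows that break the order of positions within a chromosome were left out. Annotated length runs from the first gene to the last. Gene direction, starts (several for some genes, all used for distances) and sequences came from the RefSeq promoter table. Parts of genes such as exons were not analysed here.

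Counts were compared by exact binomial and Fisher's exact tests, two-sided, with Benjamini-Hochberg adjustment over 5 tests and a threshold of 0.05. The test of the coding strand was added after seeing the data. Planned tests of pH 8.8 against pH 7.2 and input were not run, since counts of those libraries were not analysed here. The members and the gene lists were chosen with earlier results of these data known. Named were the 3 longest empty stretches and the 3 highest sites of each chromosome, the 5 windows with most sites, genes with over 1 site, pairs within 50 bp, list members with a site and the sites in promoter windows. Stretches with at least 50% of the sites of a chromosome were the shortest such stretches, found from the positions of the sites. The sites of some list members are not reported here. The exact binomial test against 50% was tested on simulated counts, and gene assignment, gaps and clusters were checked on cases with known answers. The other steps were not tested in this way. Alternatives were a minimum of 15 reads in both libraries, 1 site per cluster within 50 bp, gene number as the expectation, protein-coding genes only, 1 kb around genes, C shares from summed reads, and leaving out a replicate, chromosome 19 or chromosome 4. Analyses ran under Python 3.11.15 with scipy 1.17.1, pandas 2.3.3 and numpy 2.4.6, and figures were drawn with matplotlib 3.10.9.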

Additional observations from a re-analysis of the deposited data

How the results depend on the processing

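The low site density of chromosomes 1 to 6 passed the threshold with ratios of 0.617 to 0.679 under all 5 alternatives run; the one without chromosome 4 and the alternatives for the strand shares within chromosomes 1 to 6 were chosen after seeing the data. With at least 15 reads in both libraries, 69 of the 245 sites were left. There the difference in the share inside genes turned to 7.24 percentage points (Fisher's exact p = 0.305), the plus-strand share to 0.72 points above 50% (exact binomial p = 1), and the coding-strand share fell by 1.52 points below 50% (value -1.52, exact binomial p = 1); the difference in C share moved to -0.54 points and the genes with a site to 55, which fewer sites lower by construction. With 1 site per cluster the plus-strand share turned to 0.64 points above 50% (exact binomial p = 0.896). None of these shares passed the threshold under any setting run, and the cause of the turns was not tested. The difference in C share was -0.35 to -0.07 points without each replicate in turn. The number of stretches over 10 Mb was 24 with 1 site per cluster and 28 at 15 reads. No paired analysis was possible because the counts used belong to 1 group. Depth was 10 to 44 reads a site and library, and no test between single sites was run.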
